A study of Homo sapiens with 2 samples.

Results

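The genes described here form the start of the TRAIL death pathway and of the caspase cascade: the receptors TNFRSF10A and TNFRSF10B, the adaptor FADD, the inhibitors CFLAR and XIAP, and the initiator caspases CASP8, CASP9 and CASP10. They were taken by symbol, with earlier results of these data known, and every probe that the platform's annotation assigns to a symbol was kept, which gave 15 probes of 8 genes among 48803 probes and 18852 named genes. The cells were SW48, an established human colorectal cancer line. Cells given AKBA (acetyl-11-keto-β-boswellic acid, from the resin of Boswellia trees) at 20 µM for 6 days were compared with control cells, on 1 Illumina bead array each. For the control, the treatment protocol names 0.1% dimethyl sulfoxide while the source name calls the cells untreated, so effects of vehicle and compound cannot be told apart. With 1 array per group no spread between cultures is known, no test was made, and higher and lower describe these arrays only. Fewer cells with an RNA and less of it per cell cannot be told apart either.

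TRAIL is a cytokine of the tumour necrosis factor family that can kill tumour cells. It clusters its receptors, whose intracellular death domains recruit FADD, and FADD in turn gathers the procaspases 8 and 10, which cleave and activate each other. CFLAR (c-FLIP), a relative of caspase-8 without catalytic activity, competes at that step. Caspase-9 starts the mitochondrial branch on a platform of APAF1 and cytochrome c, and XIAP blocks caspase-9 and the executioner caspases directly. TNFRSF10B is also known as a gene that the stress factor CHOP (DDIT3) can induce.

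The AKBA array detected 11329 probes (23.2%) and the control array 12389 (25.4%), at a detection p under 0.01 against the negative control beads of the same array. The AKBA array was the dimmer one, with a mean signal of 365 against 425 for the control array, so a raw signal can be lower with AKBA while the normalized value is higher. The lowest detected signal was 141 on the AKBA array and 138 on the control array, and the median negative control lay at about 69.4 on the AKBA array and 70.6 on the control array. Of 9 markers of colorectal epithelium, EPCAM, CDH1, KRT8, KRT18 and CDX2 were detected on both arrays, and KRT20, CDX1, VIL1 and CDH17 on neither. By their brightest probes the detected ones had a median log2 difference of 0.26, AKBA minus control, from -0.40 for CDX2 to 0.59 for KRT18. Of the markers of other cells, CD68, a lysosomal protein that is not confined to leukocytes, was detected, with differences of 0.77 and -0.06 for its 2 detected probes, and the other 3 leukocyte markers with a probe and all 7 fibroblast and endothelial markers were on neither array.

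Of the 15 probes, 5 were detected, all of them on both arrays, and 10 were detected on neither. The detected probes belong to TNFRSF10A, TNFRSF10B, FADD and CASP9. The probes of CFLAR, XIAP, CASP8 and CASP10 stayed below the detection limit on both arrays. Among the detected probes 3 were higher and 2 lower with AKBA after normalization, with a median log2 difference of 0.12 beside -0.01 over all 12492 probes detected on at least 1 array. None passed 2-fold, which 1.01% of all detected probes did. At 1.5-fold, 1 probe of CASP9 was lower, where 4.57% of all detected probes were lower, and none was higher, where 3.49% were. A single probe of 5 is too few to set against that share.

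**Figure D1:**
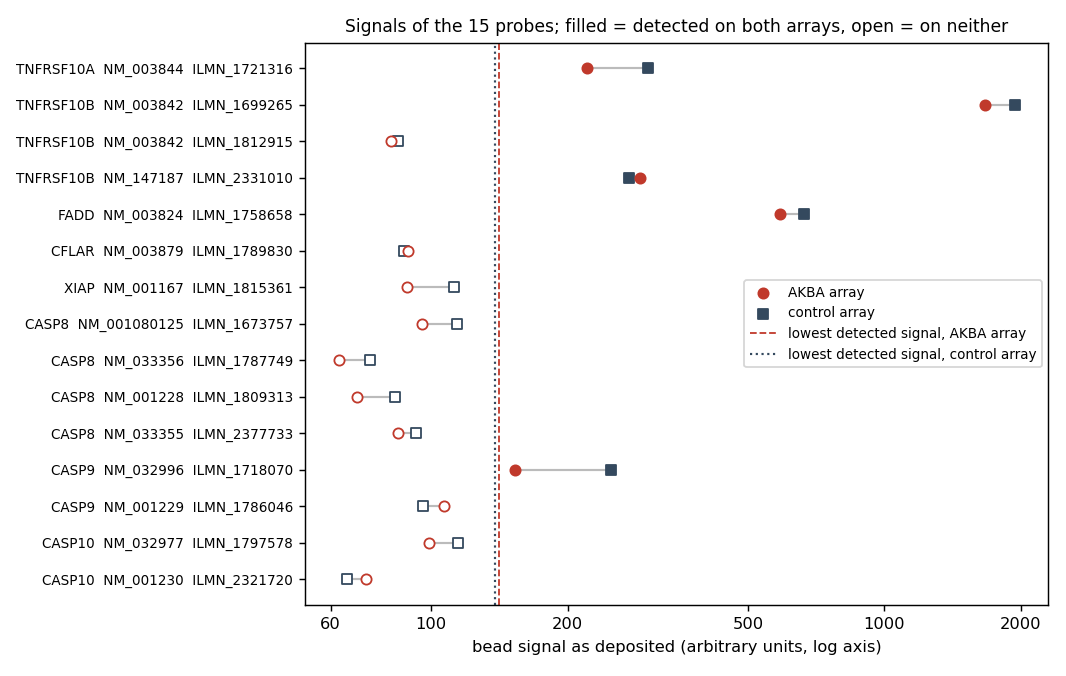
Deposited bead signal (horizontal, arbitrary units, log axis) of each of the 15 probes on the AKBA array (circles) and the control array (squares), 1 array each, with the transcript that the annotation gives for the probe. The 5 filled pairs lie to the right of the lowest detected signals of 141 on the AKBA array and 138 on the control array, and the 10 open pairs lie to the left of both.

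Both signalling receptors were detected, on opposite sides of the median of detected probes, though with median scaling the plain differences of TNFRSF10A and of 1 TNFRSF10B probe were both below 0. TNFRSF10A (DR4), measured by 1 probe, gave 221 with AKBA (detection p 0.00264) and 300.5 in the control (detection p listed at 0). Its normalized log2 value was 7.54 with AKBA and 7.75 in the control, a difference of -0.21, or 0.863-fold. Of the probes detected on both arrays, 20.8% had a lower difference. Among the 2509 such probes within 0.5 log2 units of its level, the differences had a standard deviation of 0.35, more than the difference of TNFRSF10A.

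TNFRSF10B (DR5), the other signalling receptor, has 3 probes. The probe with the highest signal, annotated to the transcript NM_003842, which encodes the longer isoform, had a signal of 1670 with AKBA and 1938 in the control, both with a detection p listed at 0. After normalization this was 10.83 with AKBA and 10.72 in the control on the log2 scale, a difference of 0.12 or 1.08-fold, under the standard deviation of 0.25 among probes as bright. The probe annotated to NM_147187, which encodes the shorter isoform, had signals of 288.5 with AKBA and 273 in the control, again with a detection p listed at 0 on both. It was the only one of the 5 detected probes whose raw signal was higher on the dimmer AKBA array. Its normalized difference was 0.46, or 1.38-fold, above that of 93.7% of the probes detected on both arrays. Among 2490 probes as bright, with a standard deviation of 0.34, it exceeded 93.1%. The third probe, also annotated to NM_003842, was detected on neither array, at 81.5 with AKBA (detection p 0.149) and 84.4 in the control (detection p 0.145).

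The 2 detected probes of TNFRSF10B thus lay on the same side of 0 after the main normalization, with a gap of 0.35 between them. With median scaling their plain differences were -0.15 and 0.17, on opposite sides of 0. Among the 1456 genes with 2 probes detected on both arrays the median gap was 0.20, and 22.9% of these genes had a gap at least as wide. Whether the probes read different isoforms was not tested, since the probe sequences were not used here. The annotation assigns each probe 1 transcript, and RefSeq lists 2 protein-coding transcripts for the gene.

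FADD, the adaptor that joins either receptor to the procaspases, had a signal of 590 with AKBA and 663 in the control, both with a detection p listed at 0. The normalized log2 value was 9.24 with AKBA and 9.07 in the control, a difference of 0.17 or 1.13-fold. Probes within 0.5 log2 units of its level had a standard deviation of 0.29, and 74.2% of those 2322 probes had a lower difference. Its RNA was thus detected on both arrays, with a difference under the standard deviation of like-bright probes.

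**Figure D2:**
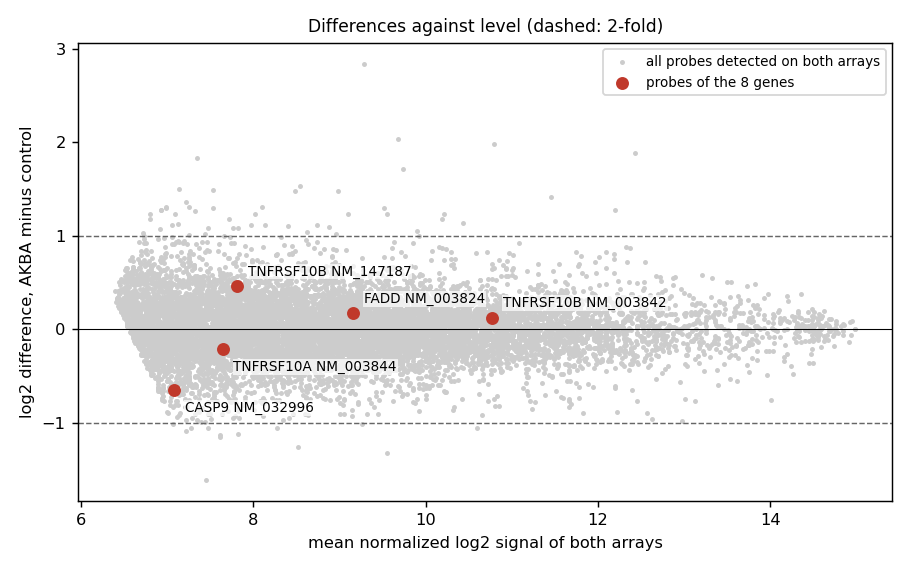
Log2 difference, AKBA minus control (vertical), against the mean normalized log2 signal of both arrays (horizontal), for every probe detected on both arrays (grey) and the 5 detected probes of the pathway start (red). All 5 lie inside the dashed 2-fold lines, from -0.65 for CASP9 to 0.46 for the TNFRSF10B probe of NM_147187, and the grey points spread more widely at low level, where CASP9 sits near the edge set by the detection limit.

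The inhibitors were not measurable at this sensitivity. CFLAR, which shares the death effector domains of caspase-8, is represented by 1 probe, at 89.1 with AKBA (detection p 0.0685) and 87.2 in the control (detection p 0.13). XIAP, which binds active caspases through its baculoviral repeats, had 88.7 with AKBA (detection p 0.0698) and 112 in the control (detection p 0.0224). Both genes stood above the median negative control and below the detection limit on both arrays, so no fold is given. CFLAR has 15 protein-coding transcripts in RefSeq and the single probe is annotated to NM_003879, while XIAP has 5 and its probe is annotated to NM_001167.

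Among the initiator caspases, all 4 probes of CASP8, the main caspase of the death receptor complex, were undetected. The probe of NM_001080125 came closest, at 95.6 with AKBA (detection p 0.0435) and 114 in the control (detection p 0.0184). The probe of NM_033355 had 84.6 with AKBA and 92.6 in the control. The probes of NM_001228 and NM_033356 had 68.5 and 62.7 with AKBA and 83.2 and 73.4 in the control, close to the median negative control bead. CASP8 signals were lower on the AKBA array in all 4 probes, yet these are signals below the limit on the dimmer array, and no fold is given. RefSeq lists 40 protein-coding transcripts for CASP8, and the 4 probes name 4 of them.

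CASP10, the paralogue of CASP8 next to it on chromosome 2, was likewise undetected with both of its probes. The probe of NM_032977 had 98.7 with AKBA (detection p 0.0343) and 114 in the control (detection p 0.0171). The probe of NM_001230 had 71.6 with AKBA (detection p 0.404) and 65.2 in the control (detection p 0.76). The probes thus differed in which array was the brighter one, both below the detection limit. CFLAR, CASP10 and CASP8 form 1 gene cluster, and none of its 7 probes was detected.

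CASP9, the initiator of the mitochondrial branch, held the largest difference among the 5 detected probes. The probe annotated to NM_032996, a transcript of a shorter isoform that lacks part of the catalytic region, gave 153 with AKBA (detection p 0.00659) and 249 in the control (detection p listed at 0). Its normalized log2 value was 6.76 with AKBA and 7.41 in the control, a difference of -0.65 or 0.635-fold, past 1.5-fold. Of the probes detected on both arrays, 1.89% had a lower difference, and 2.93% of the 2386 as bright, whose standard deviation was 0.36. Both shares leave out probes that fell below the detection limit on the AKBA array. Of the 12492 probes detected on at least 1 array, 4.57% were 1.5-fold or more lower. The AKBA signal stood just above the lowest signal detected on that array, 141, so the size is uncertain, and with an offset of 50 or without background correction the difference was -0.52 or -0.46 and no longer past 1.5-fold.

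The other CASP9 probe went the other way in raw signal. Annotated to NM_001229, the transcript of the full-length enzyme, it had 107 with AKBA (detection p 0.0198) and 95.8 in the control (detection p 0.0593). It was detected on neither array, so it gives no second measurement of the lower value. The deposited data therefore hold 1 usable probe for CASP9 and no check of it by another.

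Promoter sequences are shown for FADD and CASP9, which were detected, and for CASP8, of which no probe was, because CG dinucleotides are where DNA is methylated, a change that has been studied for AKBA in colorectal cancer cells. The windows run from 250 bases before to 50 after a transcription start, come from RefSeq on GRCh38.p14 and are written 5′ to 3′ on the gene's strand with each CG in capitals; the motif CG reads the same on both strands. Methylation was not measured on these arrays. For each gene the window with the most CG is shown, the first along the chromosome where windows tie.
FADD, chr11:70203046-70203345, + strand: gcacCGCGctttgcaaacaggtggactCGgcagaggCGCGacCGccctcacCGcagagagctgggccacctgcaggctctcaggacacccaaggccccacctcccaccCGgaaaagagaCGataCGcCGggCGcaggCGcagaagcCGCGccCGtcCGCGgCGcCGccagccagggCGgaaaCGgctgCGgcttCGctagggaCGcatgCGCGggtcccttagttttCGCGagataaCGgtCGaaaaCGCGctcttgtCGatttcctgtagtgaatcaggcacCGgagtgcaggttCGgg
CASP8, chr2:201233213-201233512, + strand: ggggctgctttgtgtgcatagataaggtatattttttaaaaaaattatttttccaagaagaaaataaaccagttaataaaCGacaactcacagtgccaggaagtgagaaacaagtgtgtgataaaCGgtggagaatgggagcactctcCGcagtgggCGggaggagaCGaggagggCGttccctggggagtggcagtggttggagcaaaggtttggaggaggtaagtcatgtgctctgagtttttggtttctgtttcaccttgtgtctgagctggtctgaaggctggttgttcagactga
CASP9, chr1:15524166-15524465, - strand: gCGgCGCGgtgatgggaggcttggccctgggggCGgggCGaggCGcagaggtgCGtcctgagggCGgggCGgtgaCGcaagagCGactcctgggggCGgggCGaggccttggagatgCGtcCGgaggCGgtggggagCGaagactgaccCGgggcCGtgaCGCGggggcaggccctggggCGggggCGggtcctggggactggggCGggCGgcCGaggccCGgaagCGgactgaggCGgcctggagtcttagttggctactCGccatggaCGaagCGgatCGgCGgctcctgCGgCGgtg

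The FADD window holds 36 CG, as does the CASP9 window, and 12.7% of all 35116 promoter windows hold at least as many. The CASP8 window holds 6, and 66.3% of all windows hold at least as many. These shares set the richest window of a gene against all windows, not against the richest of each gene. CASP8 has 3 windows with 5 to 6 CG each, and the other CASP9 window holds 30. The undetected XIAP and CFLAR have 3 windows with 10 to 27 CG and 4 windows with 0 to 22 CG, so the undetected genes include some with windows above the median. Windows were available for 5 of the 8 members, and TNFRSF10A, TNFRSF10B and CASP10 had none. A relation of CG content to detection was not tested. At least 1 CG is present in 96.0% of all windows, and their median is 14. These counts describe the sequence and say nothing of the state of the DNA in SW48 cells.

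The 5 detected probes kept their direction under the 6 ways of processing tried, once the brightness of the arrays was allowed for. Median scaling placed the median of all detected probes at -0.28, and the authors' processed values at -0.09. Relative to the median of detected probes under each of the 6 ways of processing, TNFRSF10A lay between -0.23 and -0.16 and CASP9 between -0.66 and -0.45. On the same scale FADD lay between 0.16 and 0.18. The TNFRSF10B probe of NM_003842 lay between 0.12 and 0.13 and that of NM_147187 between 0.38 and 0.48. Without that allowance, median scaling gave -0.12 for FADD and -0.15 for the brightest TNFRSF10B probe, so the sign of these small values depends on how the arrays are scaled.

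**Figure D3:**
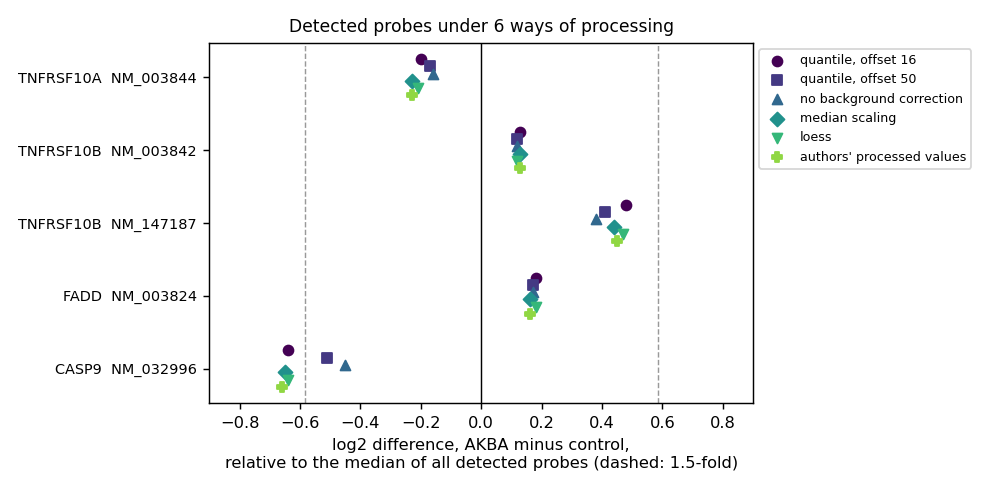
Log2 difference, AKBA minus control, relative to the median of all detected probes (horizontal), for the 5 detected probes (rows) under 6 ways of processing (markers). Each probe keeps its side of 0 under all 6; CASP9 crosses the dashed 1.5-fold line, with -0.51 at an offset of 50 and -0.45 without background correction inside it.

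The genes around these members were taken from 8 lists of 64 pathway genes, of which 58 had a named probe and 36 were detected on at least 1 array by their brightest probe. The other 6 were not analysed here. The lists were chosen with earlier results of these data known, so their counts describe these lists only and were not tested. Of the 36 detected genes, 5 had a fitted difference of 1.5-fold or more on the higher side (13.9%, beside 2.91% of all 8639 detected genes) and 1 on the lower (2.78%, beside 4.36%). ROCK1, among the 5, was detected on the AKBA array alone, 1.48-fold above the lowest value detected on the control array after the main normalization. Among genes detected on both arrays, 4 were higher. The median log2 difference of the 36 detected genes was 0.12, beside -0.02 over all detected genes. The genes higher were TRIB3, DDIT3, DFFA, SHARPIN and ROCK1, and the gene lower was TNFSF12. With the mean over the detected probes of a gene the count was again 5 and 1, but 4 of the 5 were shared: RBCK1, at 0.63, came in and DFFA, at 0.28, dropped out. The count depends on the background correction, since with an offset of 50 or with none TRIB3 and DDIT3 alone passed 1.5-fold. With median scaling 2 genes were higher and 7 lower, and with the authors' processed values 2 and 4. Relative to the median of detected genes under each, both gave 6 higher and none lower.

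The ligand and the decoy receptors were undetected at a detection p under 0.01, so no fold is given. TRAIL itself (TNFSF10) had signals of 49.3 with AKBA and 60.8 in the control, below the median negative control on both arrays. The decoy receptors TNFRSF10C and TNFRSF10D, which bind TRAIL without passing on a death signal, had 97.6 and 88.4 with AKBA and 122 and 96.9 in the control. The soluble decoy TNFRSF11B had 76.4 with AKBA and 65.2 in the control. All 4 were undetected on both arrays, as was FAS, the receptor of a related ligand, at 102 with AKBA and 88.5 in the control. At this limit SW48 cells thus showed detected RNA of both signalling TRAIL receptors and none of the ligand or the decoys on the same arrays. The call depends on the limit for TNFRSF10C, whose detection p was 0.0356 with AKBA and 0.0145 in the control, both under 0.05. For TNFRSF10D it was 0.0751 with AKBA and 0.0553 in the control. The call for FAS depends on the limit as well, with a detection p of 0.029 with AKBA, under 0.05, and 0.116 in the control.

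Of the other death receptors and ligands, 4 of 10 were detected, with a median of -0.16. TNFRSF1A, the main receptor of tumour necrosis factor, stood at 0.33, with signals of 965 with AKBA and 973 in the control. TNFSF12 (TWEAK) stood lowest at -0.59, with 183 with AKBA and 297 in the control. Of the adaptors and regulators, 6 of 10 with a probe were detected, with a median of 0.28, 5 of them above 0. SHARPIN and RBCK1, subunits of the complex that builds linear ubiquitin chains on death receptor complexes, stood at 0.59 and 0.56, and RNF31, its catalytic subunit, stood lowest at -0.09. SHARPIN, with signals of 173 with AKBA and 155 in the control, lay near the detection limit.

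Downstream, the executioner CASP6 stood at 0.21 by its brightest probe, with signals of 643 with AKBA and 699 in the control. Its other detected probes stood on the other side of 0, at -0.19 and -0.36. CASP2, an initiator outside the death receptor complex, stood at -0.24 by its brightest probe, with 4326 with AKBA and 6147 in the control. CASP1, CASP4, CASP5 and CASP14 were detected on neither array, which left 2 of 6 caspases with a probe. All 7 genes of the apoptosome and of the mitochondrial release factors were detected, with a median of 0.05. APAF1, the platform on which caspase-9 is activated, was the lowest of them at -0.56, with signals of 274 with AKBA and 467 in the control. Cytochrome c (CYCS), its trigger, stood at -0.37, with 247 with AKBA and 371 in the control. Of the 7 genes 5 stood above 0, among them BID at 0.00 after rounding, and 2 below, and none passed 1.5-fold.

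DIABLO and HTRA2, which mitochondria release and which relieve caspases of XIAP, stood on the other side. DIABLO was at 0.34, with signals of 3077 with AKBA and 3030 in the control. HTRA2 was highest of its list at 0.35, with 336 with AKBA and 339 in the control. BID, the protein that caspase-8 cleaves to engage the mitochondria, stood at 0.00, with 452 with AKBA and 561 in the control. Among the relatives of XIAP, 3 of 6 with a probe were detected, with a median of -0.13. BIRC2 (cIAP1) stood at 0.48, with signals of 750 with AKBA and 695 in the control, and BIRC5 (survivin), which also acts in mitosis, at -0.43, with 1415 with AKBA and 2366 in the control.

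Among 9 caspase substrates and factors of DNA fragmentation, all detected, the median was -0.02. DFFA, the inhibitor of the caspase-activated nuclease, was 1.51-fold higher by its brightest probe, with signals of 530 with AKBA and 459 in the control. Its other detected probe, seen on the control array alone, stood at -0.03, with 138 with AKBA and 160 in the control, and the mean of both was 0.28. ROCK1, a kinase that caspases activate, was detected on the AKBA array alone, with signals of 152 with AKBA and 134 in the control. After the main normalization it stood 1.48-fold above the lowest value detected on the control array. Its size depends on the background correction. Relative to the median of detected genes it was 0.67, but 0.48 with an offset of 50 and 0.41 without background correction. LMNB1, a nuclear lamin, stood lowest at -0.53, with 862 with AKBA and 1526 in the control. PARP1, the classical caspase substrate, stood at 0.07, with 4348 with AKBA and 5028 in the control.

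Of the transcription factors and cofactors that act upstream of such genes, 5 of 6 with a probe were detected, with a median of 0.50. DDIT3 (CHOP) was 1.90-fold higher, with signals of 577 with AKBA and 407 in the control. ATF4, which induces DDIT3, stood at 0.50 by its brightest probe, with 13068 with AKBA and 10563 in the control. Its other detected probes stood at -0.01, with the same transcript NM_001675 named, and at 0.83 for NM_182810. TRIB3, a pseudokinase and target of ATF4 and DDIT3, was 3.95-fold higher and FOXO3 lowest at -0.51. Beside the log2 difference of 0.93 for DDIT3, those of TNFRSF10B were 0.12 and 0.46 with its 2 detected probes. No pattern across samples can be drawn from 2 arrays.

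**Figure D4:**
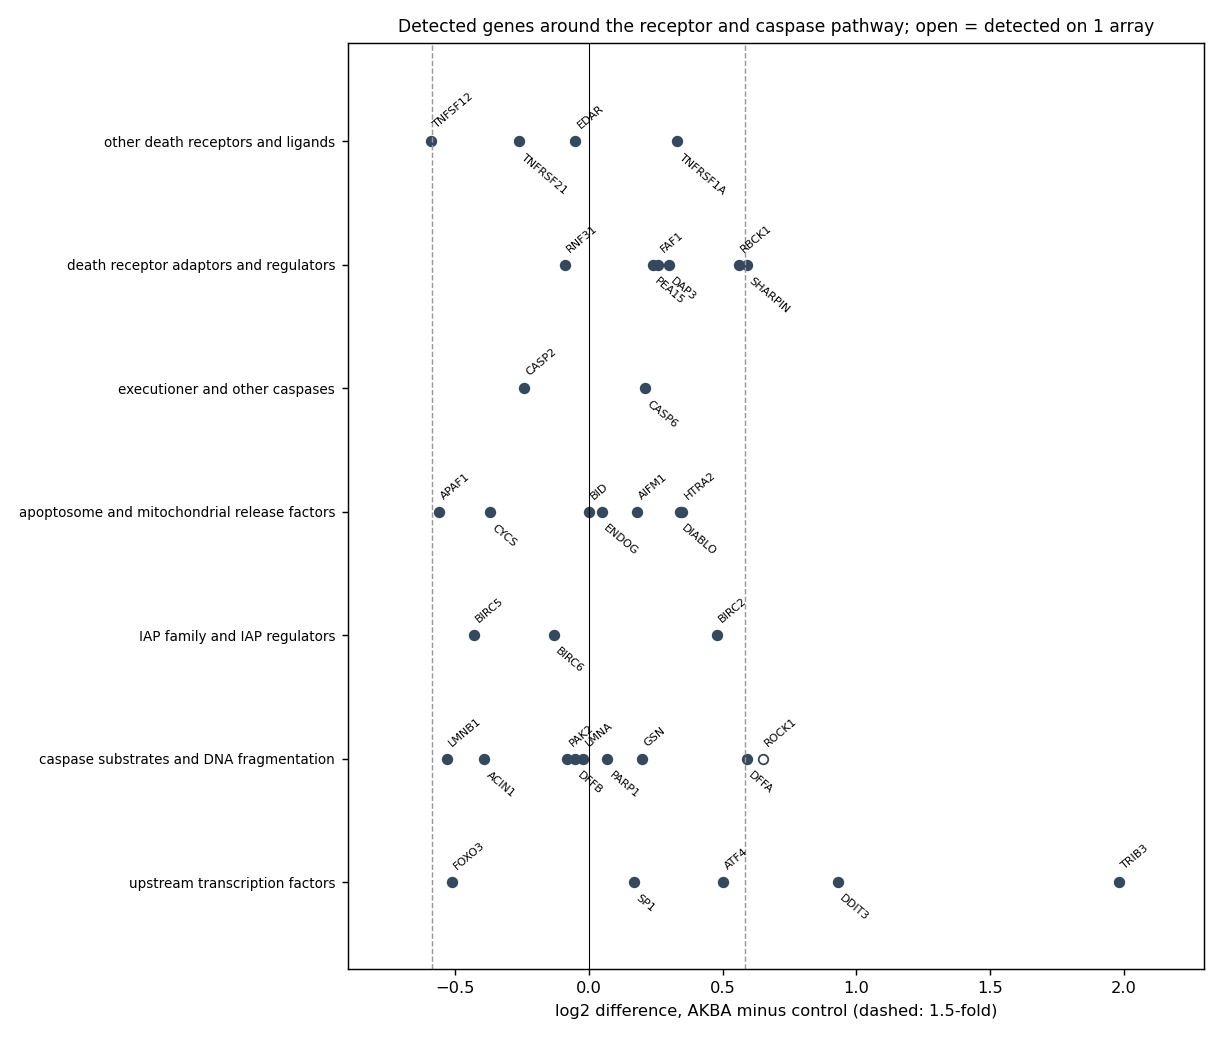
Log2 difference, AKBA minus control (horizontal), of the 36 detected genes of the pathway lists by their brightest probe, in rows by list; the list of TRAIL ligand and decoy receptors had none. Open circles mark detection on 1 array, and the dashed lines are 1.5-fold, which TRIB3, DDIT3, DFFA, SHARPIN and ROCK1 pass on the higher side and TNFSF12 on the lower.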

How the data were processed

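RNA from SW48 cultures was, per the labels' protocols, amplified and labelled for Illumina arrays. The deposited intensity per probe was used as deposited by the authors, neither background subtracted nor scaled between arrays as the values show, together with the deposited detection p-value. The authors' software is not given in sources used here. The authors' processed intensity values, background subtracted and scaled to a common mean, served as an alternative.

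Signals were corrected and normalized with neqc of limma 3.58.1 in R 4.3.3 (normexp from the detection p, offset 16, quantiles, log2). Tables and figures used Python 3.11.15, numpy 2.4.6, pandas 2.3.3 and matplotlib 3.10.9. Detection meant a detection p below 0.01. In the platform's annotation, 28098 probes had a single gene, 13 had several and 20692 were unnamed. All 8 members and the transcripts of all 15 probes were found in the RefSeq table of GRCh38.p14.

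Members and gene lists were chosen with earlier results of these data known. Named were all members, every probe, and of the lists the TRAIL ligand and decoys, FAS, TNFRSF1A, CASP6, APAF1, CYCS, DIABLO, BID, BIRC2, BIRC5, PARP1, DDIT3 and ATF4, with the highest and lowest gene of each list detected on both arrays; 5 further genes of that rule were not analysed here. RBCK1, ROCK1 and the undetected caspases were named after their values were seen. Precision is limited by having 1 array per group. The normalization was tried on simulated arrays. Recovery of the set changes was required there only for probes brighter than the median detected one, not near the detection limit.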

Additional observations from a re-analysis of the deposited data

How the results depend on the processing

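Background correction (offset 50 or none), scaling (medians, loess or the processed values of the authors), the detection limit and, for genes, averaging over probes were varied. As no replicate exists, a log2 difference counted as moved when it shifted by 0.23 or more. This is the standard deviation of log2 differences among probes of the same gene, pooled over 1677 genes. A count was called moved when it changed by more than 1.5-fold or became 0. The median difference of the 5 detected probes, 0.12, was -0.15 with median scaling, or 0.13 relative to all detected probes. Past 1.5-fold, the count of 1 became 0 with an offset of 50 and with no background correction, and 0 probes passed 2-fold under any alternative tried. Of the pathway genes, 6 passed 1.5-fold, and 2 with an offset of 50 and 2 with no background correction. The share of higher genes among these, 83.3%, was 22.2% with median scaling, 33.3% with processed values; under these the detected genes as a whole had a median of -0.29 and -0.10, and relative to it both gave 6 higher and 0 lower. At a detection p under 0.05 or with no filter on detection it was 71.4%, as 2 genes in place of 1 were lower and 5 higher as before. Averaging over probes exchanged DFFA for RBCK1. A detection p under 0.05 on either array added 4 probes, of XIAP, CASP8, CASP9 and CASP10, none past 1.5-fold. No paired analysis was possible because each group has 1 array. Detection limits what could be said of 10 of the 15 probes.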

Other observations

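Several caspase pathway genes carry more than 1 detected probe, and these did not always share a direction. The 3 probes of CASP6, all detected on both arrays, stood at 0.21 for NM_032992 and at -0.19 and -0.36 for the pair annotated to NM_001226. CASP2 stood at -0.24 and 0.29 with its probes of NM_032982 and at -0.18 with that of NM_032983. The probes of BID stood at 0.00 for NM_197966 and -0.35 for NM_197967, and those of FAF1, a FAS-associated factor, at 0.26 and -0.14 with the same transcript named for both. For comparison, the probes of BIRC5 stood at -0.43 and -0.41, those of BIRC2 at 0.48 and 0.33, those of HTRA2 at 0.35 and 0.46, those of RBCK1 at 0.56 and 0.70 and those of DIABLO between 0.10 and 0.34. All are log2 differences, AKBA minus control. The genes were named after their values were seen.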
